A study of Mus musculus with 6 samples.

Results

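*Traj45*, *Traj30*, *Traj22*, *Traj7* and *Traj5* (TRAJ45, TRAJ30, TRAJ22, TRAJ7 and TRAJ5 in the lists) are 5 joining segments of the mouse T-cell receptor α locus that were nearly absent next to the V gene *Trav11* and in regular use next to *Trav9* genes. They were chosen on that contrast: each made up less than 0.05% of productive *Trav11* sequences and at least 0.5% of productive *Trav9d-3* sequences, in both genotypes. The 6 lists held 53 *Traj* segments named alone, and 41 of them reached 0.5% with *Trav9d-3* in both genotypes, so that the 5 members were 12.2% of the segments eligible. Together they were named in 266045 of 3675237 sequences (7.239%), from 27375 for *Traj5* to 91570 for *Traj45*. Because the rule used the productive *Trav11* and *Trav9d-3* shares, the contrast between these V genes is given as a description, with no test. The *Trav9d-3* shares do enter the SKG and WT comparisons below, which are not independent of the rule for that gene.

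The T-cell receptor α chain is assembled in CD4+CD8+ double-positive (DP) thymocytes, when the RAG recombinase joins 1 of many V segments to 1 of many J segments. RAG binds a recombination signal sequence beside each segment, made of a conserved heptamer, a spacer and a conserved nonamer, and cuts between the heptamer and the coding end. The first joins mostly use V and J segments that face each other across the locus, and later rounds replace them with V segments further upstream and J segments further downstream. The join of *Trav11* to *Traj18* encodes the invariant α chain of invariant natural killer T (iNKT) cells.

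Pre-selection DP thymocytes, sorted as CD4+CD8α+TCRβ-CD69-CD5-, came from wild-type (WT) BALB/c mice and from SKG mice, which carry a spontaneous hypomorphic point mutation of *Zap70*, the kinase that relays T-cell receptor signals. Both genotypes were F3 mice bred separately from WT and SKG offspring of a cross between SKG and BALB/cJ. α-chain transcripts were amplified with primers for *Trav9*, *Trav11* or *Trav19*, giving 6 libraries, 1 for each genotype and amplicon, to ask whether the mutation altered *Traj* use before selection. The labels name the molecule genomic DNA, whereas the protocol describes cDNA made from RNA.

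A library held from 249693 to 1587280 distinct sequences, of which 55.21% to 69.8% were productive. Shares were taken over productive sequences that named 1 *Traj* segment, unless stated otherwise. These numbered 137708 (WT) and 152878 (SKG) for *Trav11*, which here includes its near-identical copy *Trav11d*, and 160887 and 102739 for *Trav9d-3*. With 1 library per genotype and amplicon no difference had a replicate check. Every test below compares 2 libraries, or 2 V genes of 1 genotype from the same or different libraries, and not the genotypes. The 95% Wilson intervals, and the detection floors set at 3 sequences, cover counting error only.

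The 5 segments lie on the plus strand of chromosome 14 and span most of the *Traj* array, 17.82 kb (*Traj45*), 34.86 kb (*Traj30*), 42.24 kb (*Traj22*), 56.47 kb (*Traj7*) and 58.77 kb (*Traj5*) from the start of *Traj61*. Coordinates and sequences are those of NCBIM37 with its GENCODE annotation, since the lists hold no coordinates; this is the C57BL/6J reference and not BALB/c, and strain differences in these signals were not tested. The exons are at chr14:54792503-54792565 (*Traj45*), chr14:54809541-54809599 (*Traj30*), chr14:54816923-54816982 (*Traj22*), chr14:54831145-54831203 (*Traj7*) and chr14:54833452-54833513 (*Traj5*). Each is shown from the first base of the nonamer to the last base of the exon, 5′ to 3′, with the heptamer in capitals. The heptamers are marked because their last bases are compared between segments below.
Traj45: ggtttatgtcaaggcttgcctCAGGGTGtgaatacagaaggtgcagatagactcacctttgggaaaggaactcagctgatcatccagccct
Traj30: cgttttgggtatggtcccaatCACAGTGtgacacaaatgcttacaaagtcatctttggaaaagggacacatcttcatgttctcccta
Traj22: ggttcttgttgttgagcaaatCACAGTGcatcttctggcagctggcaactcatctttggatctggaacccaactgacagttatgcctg
Traj7: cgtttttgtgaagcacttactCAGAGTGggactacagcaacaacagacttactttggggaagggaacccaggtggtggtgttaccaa
Traj5: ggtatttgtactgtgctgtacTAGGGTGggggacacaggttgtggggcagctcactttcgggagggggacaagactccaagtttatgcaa
For comparison, *Traj18*, whose join to *Trav11* marks iNKT cells, and *Traj6*, which lies between *Traj7* and *Traj5*, carry the consensus heptamer CACTGTG, and *Traj44*, the neighbour of *Traj45* that narrowly missed the rule, does not.
Traj18: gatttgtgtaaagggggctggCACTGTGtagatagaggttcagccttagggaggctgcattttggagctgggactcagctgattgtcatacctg
Traj6: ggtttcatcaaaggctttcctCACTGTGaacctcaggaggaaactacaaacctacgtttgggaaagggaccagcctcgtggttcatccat
Traj44: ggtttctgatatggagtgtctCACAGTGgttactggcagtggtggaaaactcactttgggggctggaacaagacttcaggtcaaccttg
The signals 3′ of the *Trav11* and *Trav19* exons are shown with the heptamer first and in capitals, since they are the partners of those above. *Trav11* (chr14:54139535-54139573) and *Trav11d* (chr14:53444589-53444627) have the same signal. *Trav19* (chr14:54465503-54465541) differs from it in the heptamer, the spacer and the nonamer.
Trav11: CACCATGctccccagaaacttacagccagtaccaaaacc
Trav19: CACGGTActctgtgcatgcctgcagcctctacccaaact

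Relative to CACTGTG, with positions counted from 1 at the 5′ end of the heptamer as printed, *Traj30* and *Traj22* carry T4A, *Traj7* carries C3G and T4A, *Traj45* carries C3G and T4G, and *Traj5* carries C1T, C3G and T4G. The heptamer base farthest from the coding end is C in 4 members and T in *Traj5*. In none of the 5 were the last 4 bases of the heptamer, next to the exon, TGTG. This ending, read at its fixed position on the plus strand, was present in 31 of the 59 annotated *Traj* segments (52.5%) and in 31 of the 54 that are not members (57.4%). All 5 exons are followed by a GT splice donor, and their length of 59 to 63 bases (median 60.0) lay within the 27 to 72 bases spanned by all segments. The nonamers of the members carried 6 to 8 of the 9 consensus bases. The alleles of *Traj45*, *Traj30*, *Traj22* and *Traj5* were listed as functional, *Traj45* with 90975 sequences of allele 1 and 595 of allele 2, and the *Traj7* allele was listed as an open reading frame.

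With *Trav11*, the productive counts of the members were at or near 0. *Traj7*, which made up 3.427% (WT) and 4.039% (SKG) of *Trav9d-3* sequences, was found in 0 of 137708 WT and 0 of 152878 SKG *Trav11* sequences, which allows shares of up to 0.00218% and 0.00196%. At its *Trav9d-3* share it would have had 4720 and 6175 sequences. By counting error alone, *Traj7* was at least 1573-fold (WT) and at least 2058-fold (SKG) less frequent with *Trav11* than with *Trav9d-3*. The floor was taken per library and treats sequences as independent, and a bound over rearrangements was not tested. *Traj5*, at 1.494% and 2.086% of *Trav9d-3* sequences, was also found in 0 *Trav11* sequences of either library. By the same floors it was at least 686-fold and at least 1063-fold lower.

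The other 3 members had between 0 and 4 productive *Trav11* sequences per library. *Traj45*, at 1.289% (WT) and 1.734% (SKG) with *Trav9d-3*, was named in 0 WT and 1 SKG sequence with *Trav11*. *Traj30*, at 1.845% and 2.678%, was named in 1 WT and 0 SKG sequences. *Traj22*, at 3.547% and 3.028%, was named in 4 WT sequences (0.002905%) and 0 SKG sequences. Summed over the 5 members, the *Trav11* share was 0.003631% in the WT and 0.0006541% in the SKG library, against 11.60% and 13.57% of *Trav9d-3* sequences. In the plot of shares by V gene, each member's *Trav11* values lay below its values with every *Trav9* gene.

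**Figure D1:**
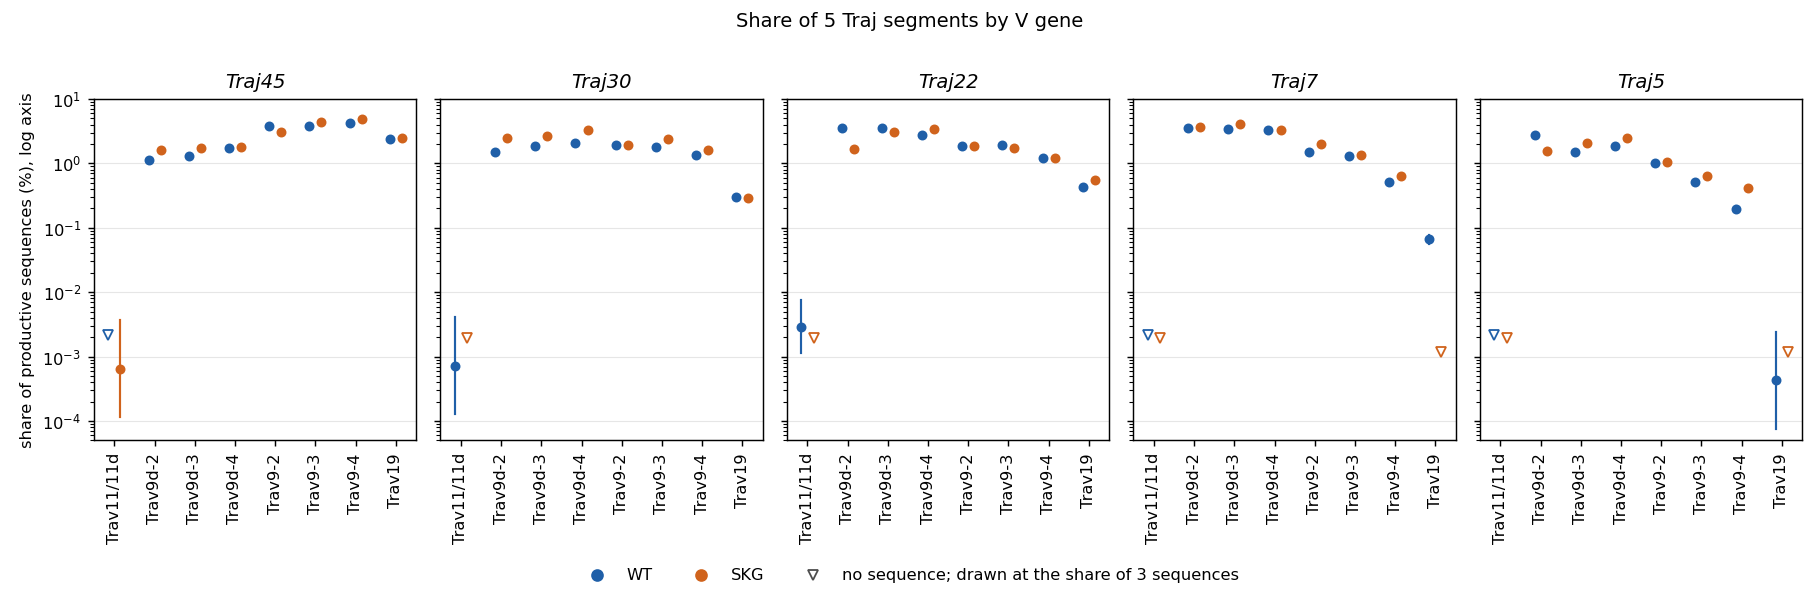
Share of each of the 5 segments among productive sequences (percent, log axis) by V gene, in the WT (blue) and SKG (orange) library. Points are shares with 95% Wilson intervals, and open triangles mark 0 sequences, drawn at the share of 3 sequences. All *Trav11* values lie at or below 0.002905%, while every *Trav9* value is at or above 0.1965% and *Traj7* and *Traj5* are also low with *Trav19*.

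Next to the threshold, *Traj44* was found in 0 *Trav11* sequences of either library and class, but its *Trav9d-3* share was 0.4612% in the WT and 0.5879% in the SKG library, so the WT value kept it out. With both libraries pooled, *Traj58* was the next lowest with *Trav11* (0.1204%), at 0.2026% in the WT and 0.04644% in the SKG library. *Traj49* followed (0.2061% pooled) at 0.1699% and 0.2388%, level with *Traj16* to 4 digits. Within single libraries the order differed, and *Traj43* was the lowest in the WT library at 0.08278%. Their *Trav9d-3* shares were 2.372% and 1.935% for *Traj58*, and 2.206% and 1.831% for *Traj49*. Of the members, *Traj22* in the WT library came closest to the limit of 0.05%, and *Traj45* in the WT library had the lowest *Trav9d-3* share.

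Unproductive sequences carry an out-of-frame join or a stop codon and encode no α chain. Sequences that differ by an error are counted separately, so the same rearrangement may be listed in both classes. The unproductive shares are thus not independent of the productive ones, or of the rule, here and in the comparisons below. How often a rearrangement fell in both classes was not tested. Among 111757 (WT) and 121903 (SKG) unproductive *Trav11* sequences, *Traj7* and *Traj5* were again found in 0, with floors of 0.00268% and 0.00246%. *Traj7* made up 3.2% and 3.586%, and *Traj5* 2.736% and 1.886%, of unproductive *Trav9d-3* sequences. Taking every functionality class together, and by counting error alone, *Traj7* was at least 2776-fold (WT) and at least 3575-fold (SKG) lower with *Trav11*. *Traj5* was at least 1645-fold and at least 1856-fold lower in the same way.

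*Traj22* and *Traj45* did occur in this class. *Traj22* was named in 224 WT (0.2004%, 95% interval 0.1759 to 0.2284%) and 96 SKG sequences (0.07875%, 0.0645 to 0.09615%) with *Trav11*. *Traj45* was named in 0 WT and 117 SKG sequences (0.09598%, 0.0801 to 0.115%), and *Traj30* in 0 WT and 1 SKG sequence. The shares with *Trav9d-3* in the same class were 2.743% and 1.978% for *Traj22*, and 1.691% and 1.554% for *Traj45*. The lists do not group sequences of 1 rearrangement, so how many joins stood behind the 224, 96 and 117 sequences was not tested. In these unproductive sequences *Traj22* exceeded 0.05% in both libraries and *Traj45* in the SKG library, so 3 segments, *Traj30*, *Traj7* and *Traj5*, met the same thresholds there.

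The neighbours of the members in the array did not share their near absence with *Trav11* where they were in use with other V genes, apart from *Traj44* and *Traj23*. *Traj6*, 1.22 kb from *Traj7* and 1.09 kb from *Traj5*, made up 5.923% (WT) and 6.635% (SKG) of *Trav11* sequences, against 2.334% and 2.574% of *Trav9d-3* sequences. *Traj4*, on the other side of *Traj5*, reached 5.04% and 6.6% with *Trav11*. *Traj9*, the nearest segment on the other side of *Traj7* that the lists name, stood at 1.378% and 1.064%.

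Further upstream, *Traj31* beside *Traj30* reached 0.5991% and 1.036% of *Trav11* sequences, and *Traj21* beside *Traj22* reached 0.8765% and 1.081%. *Traj46* and *Traj29*, the other neighbours of *Traj45* and *Traj30*, had no productive sequence with any V gene. *Traj23*, on the other side of *Traj22*, was rare among productive sequences of *Trav9d-3* (0.08329% and 0.01752%) but made up 4.55% and 4.301% of its unproductive ones. With *Trav11* its unproductive sequences numbered 0 in the WT library and 98 (0.08039%) in the SKG library. *Traj18* had the highest WT *Trav11* share of the named segments, at 9.429% and 9.952%, against 2.827% and 3.525% with *Trav9d-3*.

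**Figure D2:**
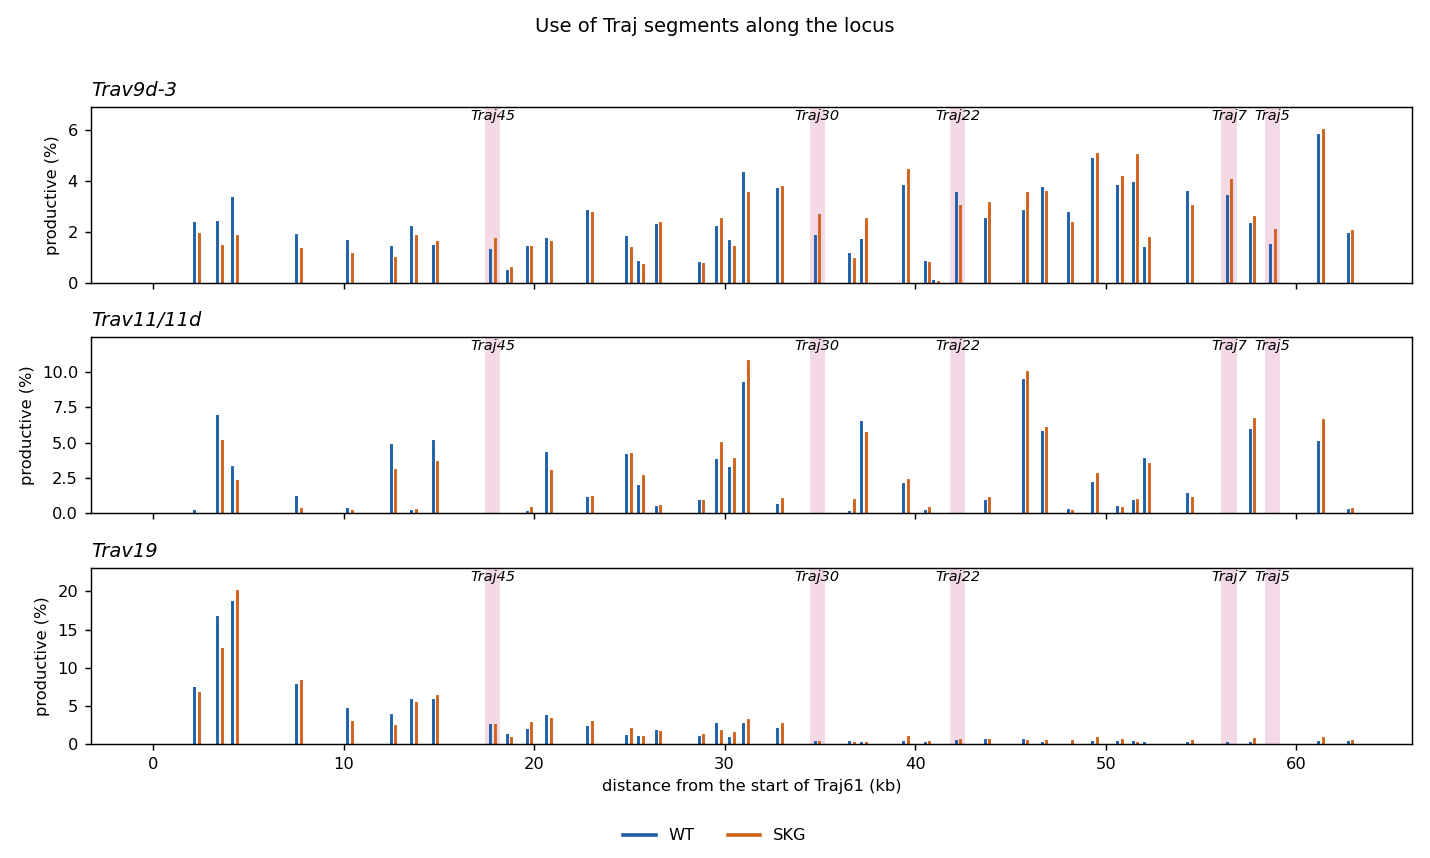
Share of each annotated *Traj* segment among productive sequences (percent, linear axes whose range differs between panels) against its distance from the start of *Traj61* in kb, for *Trav9d-3*, *Trav11* with *Trav11d*, and *Trav19*; blue lines are WT and orange lines SKG. In the shaded positions of the 5 members, lines stand with *Trav9d-3* and are missing with *Trav11*, while *Traj6*, between *Traj7* and *Traj5*, is at 5.923% and 6.635% with *Trav11*.

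The heptamer ending was compared with *Trav11* use over the 40 segments that reached 0.5% with *Trav9d-3* in both libraries and have an annotated exon. This comparison was chosen after the shares were known and is a description. The heptamer ended in TGTG in 27 of the 40, in AGTG in 9 and in GGTG in 4. With *Trav11*, 12 of the 13 segments without TGTG lay under 1% in each library, against 7 (WT) and 6 (SKG) of the 27 with it. The 5 members are among these 12, and the rule itself placed them there. The 13 segments summed to 8.809% (WT) and 7.141% (SKG) of *Trav11* sequences, and to 29.02% and 29.31% of *Trav9d-3* sequences. With the other V genes their sum ran from 25.0% to 39.7%. Without the members, the 8 other segments summed to 8.806% and 7.14% with *Trav11*, and to 17.42% and 15.74% with *Trav9d-3*.

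Most of the *Trav11* sum came from 1 segment, *Traj57*, at 6.872% and 5.088%. It is the only segment of the 40 whose class depends on where the exon is taken to begin: its annotated boundary gives GTGGGTG, and a boundary aligned on the nonamer, 2 bases away, gives GGGTGTG. With that boundary, which was chosen after seeing the data, the 12 remaining segments summed to 1.937% and 2.053% with *Trav11*, and the 28 others to 94.43% and 94.8%. None of the 12 exceeded 0.4539% in the WT or 0.5521% in the SKG library.

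The pattern was not confined to the members. Without them, the 8 other segments lacking TGTG at the annotated boundary had a median of 0.264% (WT) and 0.3411% (SKG) with *Trav11*, against 2.235% and 1.883% with *Trav9d-3*. These 8 included *Traj49* and *Traj24*, whose heptamer CACAGTG is that of *Traj30* and *Traj22*, and they had *Trav11* shares of 0.1699% and 0.2388% (*Traj49*) and 0.1409% and 0.3545% (*Traj24*). The heptamer letters thus did not separate members from other segments of low *Trav11* use. In the opposite direction, *Traj16* has the consensus CACTGTG and stood at 0.2273% and 0.1871% with *Trav11* against 2.745% and 2.352% with *Trav9d-3*. *Traj24*, *Traj57* and *Traj16* were named after their values were seen, as were *Traj43*, *Traj27*, *Traj12* and *Traj11*.

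**Figure D3:**
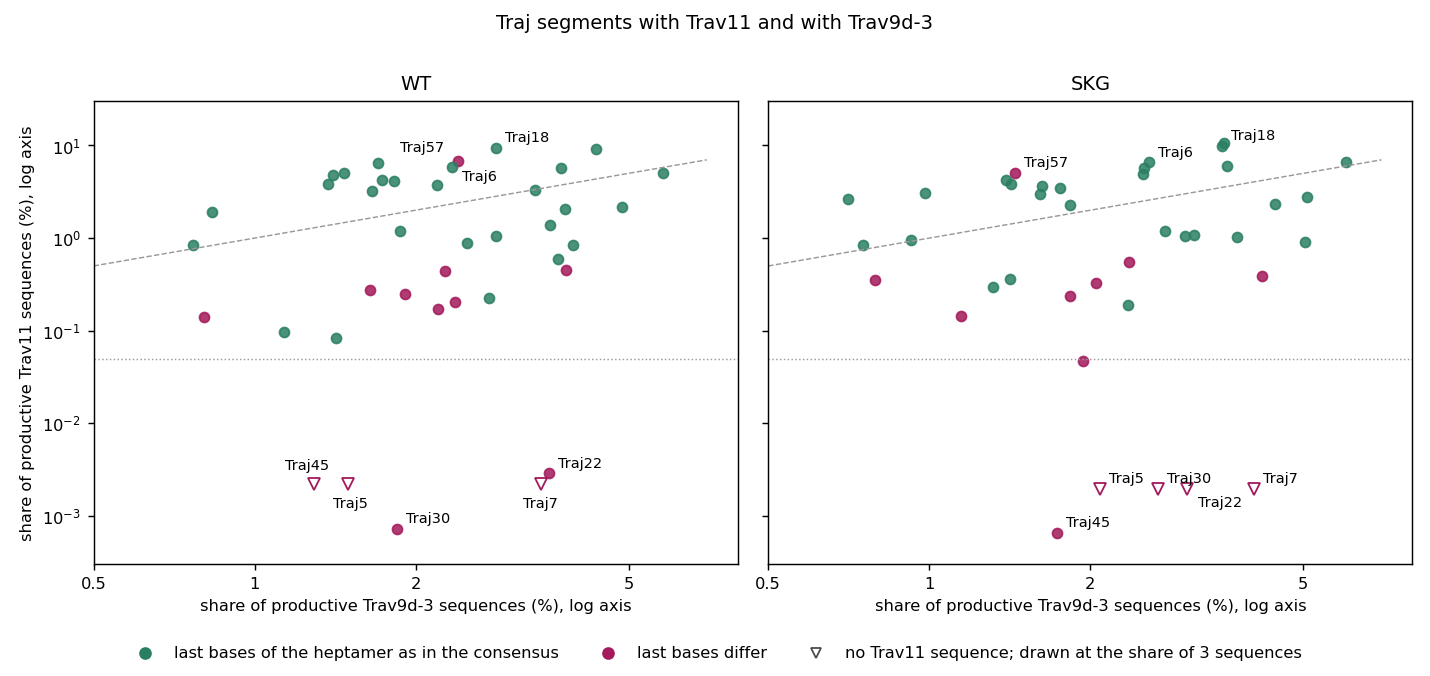
Share among productive *Trav11* sequences against share among productive *Trav9d-3* sequences (percent, log axes) for 40 *Traj* segments, WT left and SKG right. Green points have a heptamer whose last 4 bases match the consensus and magenta points one that differs, open triangles mark 0 sequences drawn at the share of 3 sequences, the dashed line marks equal shares and the dotted line 0.05%. The 5 members lie at the bottom of the magenta points, and *Traj57* is the magenta point above the dashed line.

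**Figure D4:**
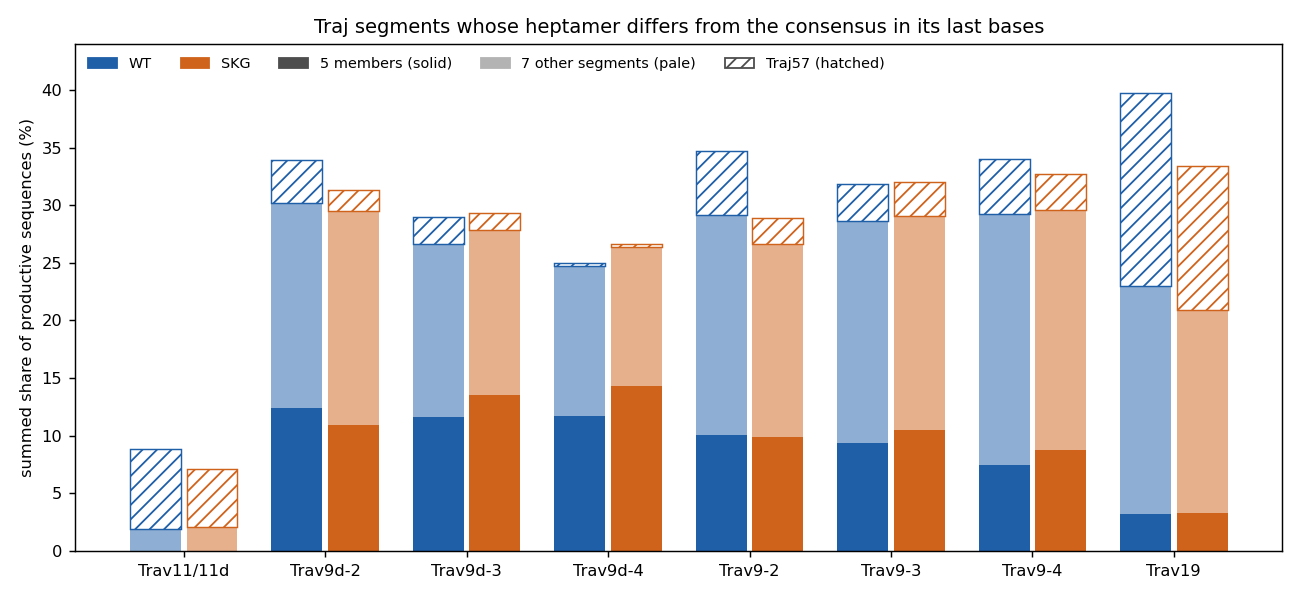
Summed share of productive sequences (percent) of the 13 *Traj* segments whose heptamer differs from the consensus in its last 4 bases at the annotated boundary, by V gene, in WT (blue) and SKG (orange). Solid parts are the 5 members, pale parts 7 other segments and hatched parts *Traj57*. With *Trav11* the bars reach 8.809% and 7.141%, of which *Traj57* holds 6.872% and 5.088%, and with the other V genes they lie between 25.0% and 39.7%.

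The V-side signals differed between *Trav11* and *Trav19* as well. *Trav11* and *Trav11d* have the heptamer CACCATG, and *Trav19* has CACGGTA. By position, *Trav11d*, 1330.1 kb upstream of *Traj61*, lies beyond *Trav9d-2* (1262.4 kb), *Trav9d-3* (1233.9 kb) and *Trav9d-4* (1171.1 kb), and *Trav11*, at 635.1 kb, lies between *Trav9d-4* and *Trav9-2* (563.5 kb). *Trav9-4* (478.4 kb) and *Trav19* (309.2 kb) are closer to the *Traj* array. *Trav11* and *Trav11d* were counted as 1 gene, so the position behind a *Trav11* sequence is not known. Whether V position or V or J sequence played a part in the shares was not tested.

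Outside *Trav11*, the members were used with all 6 *Trav9* genes that had enough sequences, and together held from 7.487% to 14.35% of productive sequences per gene and library. In the WT library the sum was 12.44% with *Trav9d-2*, 11.60% with *Trav9d-3*, 11.72% with *Trav9d-4*, 10.07% with *Trav9-2*, 9.332% with *Trav9-3* and 7.487% with *Trav9-4*. In the SKG library it was 10.97%, 13.57%, 14.35%, 9.914%, 10.45% and 8.766% in the same order. Among productive sequences the 3 *Trav9d* genes were thus above the 3 other *Trav9* genes in both libraries. Unproductive sequences kept this order in the WT library. In the SKG library *Trav9-2* (11.61%) was there above *Trav9d-2* (11.13%) and *Trav9d-3* (11.04%).

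The members did not follow 1 order across the *Trav9* genes. *Traj5*, near the far end of the array, fell from 2.784% with *Trav9d-2* to 0.1965% with *Trav9-4* in the WT library, a 14.2-fold range, and in the SKG library its highest share, with *Trav9d-4*, was 6.12 times its lowest, with *Trav9-4*. *Traj7* spanned 6.88-fold (WT) and 6.35-fold (SKG), *Traj22* 2.9-fold and 2.79-fold, and *Traj30* 1.53-fold and 2.05-fold, each lowest with *Trav9-4*. *Traj45*, the member nearest the V genes, ran the other way, from 1.142% (WT) and 1.604% (SKG) with *Trav9d-2* to 4.219% and 4.879% with *Trav9-4*.

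With *Trav19*, the V gene closest to the array, the members summed to 3.217% (WT) and 3.291% (SKG). *Traj45* made up most of this, at 2.425% and 2.456%. *Traj30* stood at 0.2965% and 0.2857%, and *Traj22* at 0.4283% and 0.5499%. *Traj7* and *Traj5* were also rare here, with 156 WT (0.06655%) and 0 SKG sequences for *Traj7*, and 1 WT and 0 SKG sequence for *Traj5*, where 0 of 252048 allows up to 0.00119%. Unlike with *Trav11*, low *Trav19* use extended over the segments around them, *Traj6* being at 0.1647% and 0.58%.

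Summed shares of V genes outside *Trav11* and *Trav9d-3* were compared with a quasi-binomial test whose variance was multiplied by a factor described below, 4 comparisons in all. The rule did not use these shares, but it asked for use with *Trav9d-3*, which lies next to *Trav9d-4* among the V genes counted. The comparison of *Trav9d-4* with *Trav9-4* is thus not independent of the rule. *Traj44*, kept out by its WT *Trav9d-3* share, was lower with *Trav9d-4* than with *Trav9-4* (0.8035% and 1.442%, WT). The summed share was higher with *Trav9d-4* than with *Trav9-4* by 4.229 percentage points in the WT library (standard error, SE, 0.7712, quasi-binomial test, Benjamini-Hochberg adjusted p = 3.147e-09) and by 5.579 in the SKG library (SE 1.106, adjusted p = 5.407e-08). In unproductive sequences the latter difference was 3.184 points (adjusted p = 0.0424, quasi-binomial test). The productive sum was higher with *Trav9-4* than with *Trav19* by 4.27 points (SE 0.6703, quasi-binomial test, adjusted p = 2.588e-10) and 5.474 points (SE 0.9241, adjusted p = 1.165e-11). The latter pair comes from different amplicons, and amplicon and V gene cannot be told apart there. Between *Trav9d-4* and *Trav9-4*, *Traj45* went against the sum (1.757% and 4.219%, WT). Segments outside the rule also differed in the WT library, *Traj18* at 5.292% and 1.308% and *Traj57* at 0.3186% and 4.748%. The test was not run on other segments, so it does not set the members apart.

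Across V genes and genotypes without *Trav11*, 14 combinations in all, the log2 shares of *Traj30*, *Traj22*, *Traj7* and *Traj5* each followed the mean of the other members, with Pearson's r of 0.946, 0.857, 0.909 and 0.969. *Traj45* did not, with r of -0.228. The combinations share libraries, so these are descriptions. Some values were at the floor: with *Trav19*, *Traj5* had 1 WT and 0 SKG sequences and *Traj7* had 0 SKG sequences. They entered the log2 shares with 0.5 added to each count, and how far they set r was not tested. With *Trav11* included, 16 combinations, the profile holds the *Trav11* shares by which the rule chose the members. The segments most like the members' mean profile among 39 candidates were then *Traj31* (r = 0.925), *Traj37* (0.904) and *Traj44* (0.872). Without *Trav11* the same 3 gave 0.701, 0.553 and -0.164, and segments that are common with *Trav11* came close to the members' mean, such as *Traj27* (0.969) and *Traj18* (0.892). *Traj12* (0.934) and *Traj11* (0.909) did so too. The profile of the members outside *Trav11* was thus shared by segments outside the rule.

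With the *Trav9* genes, the productive fraction of the members lay on both sides of that of all segments. Over all *Traj* segments, 61.03% to 68.16% of sequences were productive per *Trav9* gene in the WT and 65.72% to 72.22% in the SKG library. The medians over the 6 genes were 59.77% and 68.86% for *Traj45*, 62.84% and 73.0% for *Traj30*, 68.23% and 67.15% for *Traj22*, 64.56% and 68.99% for *Traj7*, and 60.46% and 68.41% for *Traj5*. The medians over all segments were 62.14% and 69.89%. The lowest single value was 42.81%, for *Traj5* with *Trav9-4* in the WT library.

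To ask whether the members were used differently in SKG cells, the SKG and WT shares were compared for each V gene outside *Trav11*. The *Trav9d-3* shares among them had entered the rule, so the comparisons with that gene are not independent of it. Of 34 member comparisons, 1 passed an adjusted p of 0.05 over the 301 comparisons of all segments and V genes, and it was lower in SKG. Among all 301, 2.33% passed as higher and 5.65% as lower in SKG. The call was *Traj22* with *Trav9d-2*, at 3.504% (4471 sequences) in the WT and 1.675% (568 sequences) in the SKG library. The difference was -1.83 points (SE 0.4407, log2 ratio -1.06, adjusted p = 0.01293, quasi-binomial test), in a V gene where 6.98% of segments passed as lower. With the other *Trav9* genes *Traj22* gave log2 ratios of -0.23, 0.32, -0.04, -0.18 and -0.01, from *Trav9d-3* to *Trav9-4*, and passed with none, and in the unproductive class its *Trav9d-2* shares were 2.121% and 2.222%. This call therefore had no counterpart among the unproductive sequences of the same libraries.

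*Traj30* was higher in the SKG than in the WT library with all 6 *Trav9* genes, by log2 ratios of 0.02 to 0.72, and passed with none (lowest adjusted p = 0.0676, quasi-binomial test, with *Trav9d-4*). The 6 genes come from the same pair of libraries and are not replicates. In unproductive sequences the number of *Trav9* genes with a higher SKG share was 5 of 6 for *Traj30* and *Traj22*, 4 for *Traj7*, and 3 for *Traj45* and *Traj5*, so that *Traj22*, higher with 1 of 6 among productive sequences, went the other way there. *Traj5* had the widest range of ratios, from -0.83 with *Trav9d-2* (2.784% and 1.569%) to 1.06 with *Trav9-4* (0.1965% and 0.4094%), again with no call (lowest adjusted p = 0.103, quasi-binomial test).

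*Traj45* and *Traj7* were each higher in SKG with 5 of the 6 *Trav9* genes, with lowest adjusted p of 0.327 and 0.38. With *Trav19*, *Traj7* was at least 55.9-fold lower in SKG by its floor. The 156 sequences against 0 did not pass with the variance factor of that V gene (adjusted p = 0.4581, quasi-binomial test). Over the 34 comparisons, those with *Trav9d-3* included, 24 ratios were above 1, with a median log2 ratio of 0.21. Over all segments it was 173 of 301 and 0.06.

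**Figure D5:**
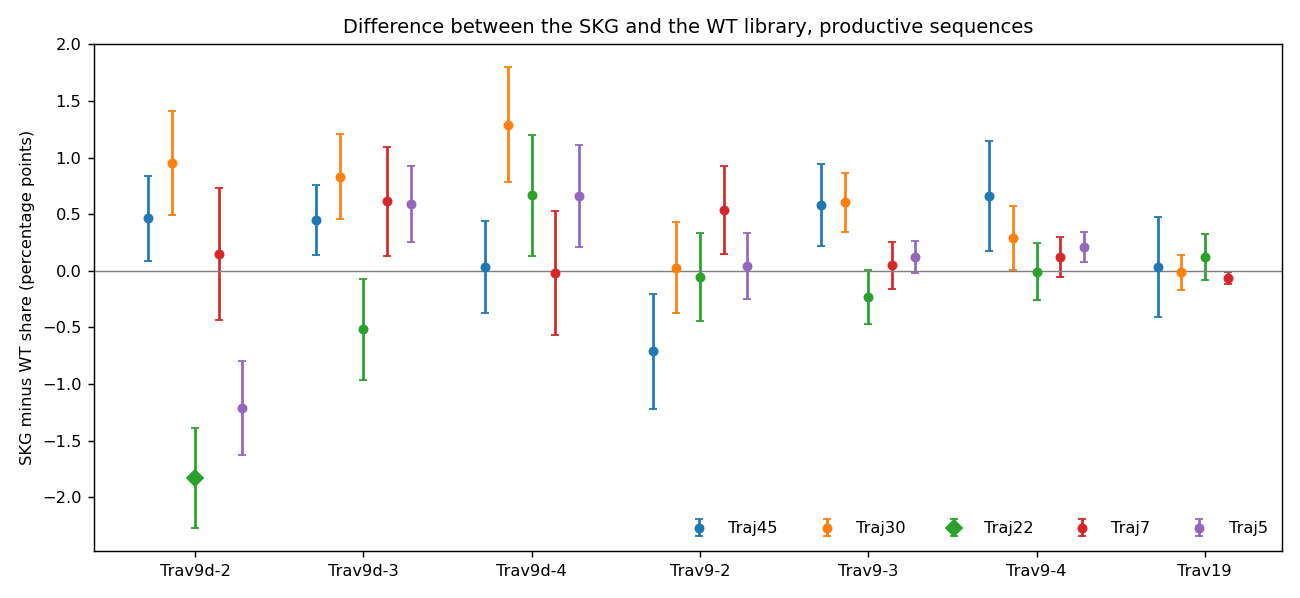
Share in the SKG library minus share in the WT library (percentage points of productive sequences) for each member by V gene. Bars are 1 standard error, with the variance multiplied by the factor of the V gene. The diamond marks *Traj22* with *Trav9d-2*, at -1.83 points, the single comparison with an adjusted p under 0.05. *Traj30* is above 0 with every *Trav9* gene, and *Traj5* with *Trav19* was not tested because it had 1 sequence.

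The summed member share differed between SKG and WT by -1.479 points with *Trav9d-2* (SE 0.9828), 1.963 with *Trav9d-3* (SE 0.8344), 2.629 with *Trav9d-4* (SE 1.039) and -0.1602 with *Trav9-2* (SE 0.8626). With *Trav9-3* the difference was 1.121 (SE 0.5455), with *Trav9-4* 1.279 (SE 0.6362) and with *Trav19* 0.07492 (SE 0.5086). None of the 7 passed, with adjusted p from 0.05955 to 0.8829 in the quasi-binomial test. The *Trav9d-3* sum draws on shares that the rule used. In the unproductive class, the *Trav9-2* sum was 6.555% in the WT and 11.61% in the SKG library, a difference of 5.058 points that did pass (adjusted p = 0.000199, quasi-binomial test). Productive and unproductive sequences of the same gene thus gave different answers there.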

How the data were processed

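Sequences of *Trav9*, *Trav11* and *Trav19* amplicons from sorted pre-selection DP thymocytes were analysed, 1 library per genotype (WT, SKG) and amplicon. According to the methods, the authors assembled read pairs with MiXCR, trimmed primers with cutadapt (version 1.13 per the labels), dropped exact copies and named the V and J segments through IMGT/HighV-QUEST. Each line deposited by the authors stands for 1 distinct sequence and gives its functionality class and its V and J names. They hold no read counts, so a share of sequences is neither a share of reads nor of cells. Without molecular identifiers, sequences of 1 rearrangement that differ by an error are counted separately.

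Sequences were counted per *Traj* segment when 1 *Traj* gene was named and the V gene was named alone, *Trav11* and *Trav11d* being counted as 1 gene. The 72 sequences that named a member with another *Traj* gene were left out. *Trav9-1* and *Trav9d-1* had too few sequences for the comparisons. Shares were compared between 2 libraries, or between 2 V genes of 1 genotype, with a quasi-binomial test. Its variance was multiplied by a factor estimated per V gene. To obtain this factor, the productive share was modelled by logistic regression on segment and library, over segments with at least 50 sequences per library. Pearson's statistic was then divided by the residual degrees of freedom. The factor ranged from 25.88 (*Trav9d-2*) to 99.82 (*Trav19*). It reflects the spread of the productive share that segment and library left unexplained, and does not measure the spread of a segment's share among sequences. Between V genes the larger of the 2 factors was taken, and how well it suits such a contrast was not tested. p-values were adjusted by the Benjamini-Hochberg method over segments with at least 10 sequences in both libraries together, and over the 7 V genes for the summed share. Both tests were tried on 200 simulated pairs of libraries, for the summed share of 5 of 40 segments. Where no shift was put in, the scaled test passed 5.0% of pairs and Fisher's exact test 86.5%. Where the sum was shifted by 5 points, the same tests passed 79.0% and 99.0%. Single segments and comparisons between V genes were not simulated. Whether the simulated libraries had the spread of the real ones was not tested, so these rates hold for the simulation only. Alternatives were the functionality class, the handling of several V or J names, the total without *Traj18*, Fisher's exact test, a 1.5-fold limit, other thresholds for the rule and, chosen after seeing the data, pooled libraries for the rule and a nonamer-aligned exon boundary.

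The labels name the build mm10 for the authors' processing. Exons, splice donors and signals (nonamer of 9, spacer of 12 for *Traj* or 23 for *Trav*, heptamer of 7 bases beside the exon) were read from NCBIM37. The signals of the *Trav9* genes are not reported here. The members and lists were chosen with earlier results of these data known. Besides the members, the segments named are their neighbours in the numbering, the 3 just outside the rule, *Traj18* and the 3 most like the members' mean. *Traj11*, *Traj12*, *Traj16*, *Traj24*, *Traj27*, *Traj43* and *Traj57* were added after their values were seen. Python 3.11.15, numpy 2.4.6, pandas 2.3.3, scipy 1.17.1, statsmodels 0.14.6 and matplotlib 3.10.9 were used.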

Additional observations from a re-analysis of the deposited data

Results flagged for a closer look

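The *Trav11* libraries also held sequences of other V genes, all of them *Trav8d-2* or its copies, which no comparison above used. In the WT library 27 of 224 such sequences (12.05%, 95% Wilson interval 8.418 to 16.97%) carried a member segment, 6 with *Traj45* and 21 with *Traj5*. In the SKG library 41 of 390 (10.51%, 7.844 to 13.95%) did, all with *Traj45*. The *Trav11* sequences of the same libraries, in every functionality class, carried a member in 229 of 249465 (0.0918%) and 215 of 274781 (0.07824%). The intervals treat the sequences as independent, and how many rearrangements stood behind them was not tested.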

How the results depend on the processing

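No paired analysis was possible because each genotype and amplicon had 1 library. The rule gave the same number of segments with a *Trav11* limit of 0.1% or a *Trav9d-3* limit of 1%, 6 with both libraries pooled (*Traj44* added) and 3 among unproductive sequences. The summed *Trav11* share was 0.2004% (WT) and 0.1755% (SKG) in unproductive sequences and 0.0918% and 0.07824% in every class. The *Trav9d-3* sum was 12.25% and 11.04%, 11.86% and 12.81%, and, without *Traj18* in the total, 11.94% and 14.06%. Between SKG and WT, the summed difference in the quasi-binomial test turned to -1.215 points with *Trav9d-3* (adjusted p = 0.366) and to 5.058 with *Trav9-2* (adjusted p = 0.000199) in unproductive sequences, and to 1.463 with *Trav9-2* (adjusted p = 0.0665) in every class. In the same test over every class *Trav9-3* (1.181, adjusted p = 0.0249) and *Trav9-4* (1.508, adjusted p = 0.0246, quasi-binomial) passed. Fisher's exact test, which takes sequences as independent, passed -1.479 for *Trav9d-2*, 1.963 for *Trav9d-3*, 2.629 for *Trav9d-4*, 1.121 for *Trav9-3* and 1.279 for *Trav9-4* (adjusted p from 4.13e-49 to 9.93e-14). Of 43 segments per V gene it called 35 for *Trav9d-2*, *Trav9d-3* and *Trav19*, 31 for *Trav9d-4*, 37 for *Trav9-2* and *Trav9-3*, and 36 for *Trav9-4*. A 1.5-fold limit gave 11 for *Trav9d-2*, 3 for *Trav9d-3*, 8 for *Trav9d-4*, 14 for *Trav9-2*, 4 for *Trav9-3*, 9 for *Trav9-4* and 22 for *Trav19*, against 3, 1, 0, 6, 5, 6 and 3 in the quasi-binomial test. The SKG difference between *Trav9d-4* and *Trav9-4* fell from 5.579 to 3.184 points in unproductive sequences. The nonamer-aligned boundary moved the *Trav11* sum of segments without TGTG to 1.937% and 2.053%. Of the 34 member comparisons, Fisher's exact test called 24, and 6 had an unadjusted p below 0.05. With 1 library per group, depth limits the floors, and the spread between libraries of 1 genotype is unknown.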

Other observations

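The minor *Trav9* genes were close to the limit of what could be counted. *Trav9-1* alone had 715 (WT) and 458 (SKG) productive sequences, of which the 5 members made up 7.552% (95% Wilson interval 5.834 to 9.724%) and 13.1% (10.31 to 16.5%). *Trav9d-1* had 74 and 131, with 1 and 15 member sequences.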
